A study of Sus scrofa with 5 samples.

Results

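The EGF-like ligands AREG, EREG, BTC, EGF, TGFA, HBEGF and NRG1 and the ERBB receptors EGFR, ERBB2 and ERBB3 were followed in ovarian follicles of the pig. These 10 genes were chosen by gene name, and each was found as 1 row among the 30822 genes listed. RNA sequencing covered 3 libraries of large follicles and 2 libraries of small follicles from female pigs of the Indian Ghoongroo breed, with no treatment beyond the follicle size class named in the labels. The labels call the replicates biological. Sources used here give neither the animals behind each library nor the follicle diameters, ages or cycle stages, and p-values therefore cover only the spread between these libraries. Levels are in FPKM, a fragment count divided by the length of the gene and the size of the library, and library totals ran from 9523739 to 11507527 fragments. A whole follicle holds granulosa cells, theca cells, vessels, blood cells and an oocyte, and in such bulk RNA fewer cells of a type and less RNA per cell cannot be told apart.

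EGF-like growth factors are made as membrane-anchored precursors, cut free by sheddases of the ADAM family, and bind receptors of the ERBB family, which pair up and signal through RAS and ERK. In the mouse ovary the surge of luteinizing hormone (LH) switches on amphiregulin, epiregulin and betacellulin in mural granulosa cells, and these ligands carry the signal to the cumulus cells around the oocyte. There they act through EGFR to induce ovulatory genes such as the prostaglandin synthase PTGS2 and the hyaluronan-linking protein TNFAIP6. The comparison of large with small follicles therefore addresses whether such a ligand pattern is seen in the larger size class.

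AREG, EREG and BTC, the ligands of the LH response, had low levels in both size classes. Of the 10 genes 6 were high enough for the test between large and small follicles, and none of these passed it. Over all 10 genes, 6 had lower values in every large follicle library than in either small follicle library, 1 had higher values in every large follicle library, and 3 overlapped. Among the 23353 genes above 0 in any library, 13.5% lay wholly lower and 10.4% wholly higher in large follicles. The 6 genes with lower values were TGFA, AREG, BTC, EGFR, ERBB2 and ERBB3, and the gene with higher values was EREG. After median-of-ratios scaling 5 genes lay wholly lower, because the values of ERBB2 then overlapped.

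**Figure D1:**
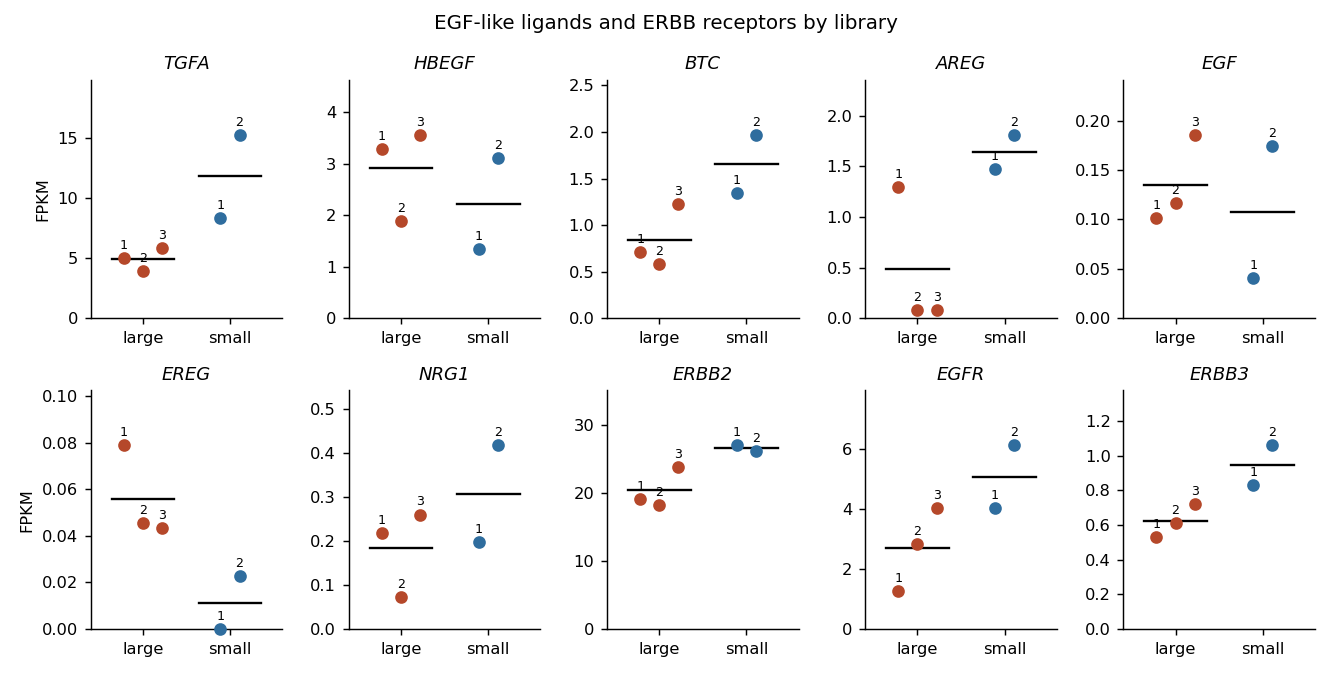
FPKM (vertical axes, linear, from 0, with a separate scale for each gene) of the 10 genes in large (red) and small (blue) follicle libraries; numbers are replicate numbers and lines are group means. TGFA, BTC, AREG, ERBB2, EGFR and ERBB3 sit lower in all 3 large follicle libraries than in both small ones, while EREG stays under 0.08 FPKM everywhere.

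The test was limma's moderated two-sided test on log2(FPKM + 1), fitted over the 13087 genes that reached an FPKM of 1 in 2 or more libraries, with Benjamini-Hochberg adjustment over all of them. A gene was called at an adjusted p under 0.05, and 0.978% of the genes tested were called. Of the 10 family genes, 6 entered the fit (AREG, BTC, TGFA, HBEGF, EGFR and ERBB2) and 0 were called by limma, with 2, AREG and TGFA, at an unadjusted p under 0.05. Limma voom on fragments worked back from the FPKM values also called 0. At an unadjusted p under 0.05 stood 10.4% of all genes tested. The median log2 fold change of the 6 genes was -0.65, against -0.08 over all genes tested, and 5 of the 6 were below 0, as were 60.1% of all genes tested. EREG, EGF, NRG1 and ERBB3 stayed under the filter on low values and were compared by an exact permutation test of 3 against 2 libraries. Its two-sided p was 2 times the smaller one-sided p, a form that cannot fall below 0.2 here.

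Transforming growth factor alpha, TGFA (gene 397484, chromosome 3, 71948232 to 72054257 in Sscrofa11.1), was the most abundant ligand. This EGFR ligand is known from theca cells in cattle. TGFA had 4.97, 3.92 and 5.80 FPKM in large follicle replicates 1, 2 and 3, against 8.36 and 15.3 FPKM in small follicle replicates 1 and 2. The groups did not overlap, and small follicle replicate 2 stood well above the other 4 libraries. The means were 4.89 ± 0.942 FPKM in large follicles (SD, n = 3) and 11.8 ± 4.88 FPKM in small follicles (SD, n = 2). The log2 fold change was -1.08 ± 0.32 (SE), with a 95% interval of -1.79 to -0.36, and the limma adjusted p was 0.208. With small follicle replicate 2 left out the log2 fold change was -0.68 (limma adjusted p = 0.917), and with small follicle replicate 1 left out it was -1.48 (limma adjusted p = 0.178). These values rested on 122 to 477 fragments per library.

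Amphiregulin, AREG (gene 397668, chromosome 8, 70417935 to 70428106), binds EGFR alone and is the ligand most strongly tied to the LH surge in the mouse. AREG had 1.29, 0.0828 and 0.0791 FPKM in large follicle replicates 1, 2 and 3, against 1.48 and 1.81 FPKM in small follicle replicates 1 and 2. Large follicle replicate 1 was thus close to the small follicles, and the other large follicle libraries were near the floor. The fragments behind these levels were 18, 1 and 1 in large follicles, against 17 and 22 in small follicles. The limit that a count of 0 allows, 3 fragments, corresponds to between 0.216 and 0.261 FPKM of AREG in these libraries, so large follicle replicates 2 and 3 were below that limit.

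The mean of AREG was 0.485 ± 0.700 FPKM in large follicles (SD, n = 3) and 1.64 ± 0.238 FPKM in small follicles (SD, n = 2). The SD in large follicles exceeded their mean. The log2 fold change of AREG was -0.93 ± 0.35 (SE), with a 95% interval of -1.71 to -0.14 and a limma adjusted p of 0.370. The size of this change depended on the method, as large follicle replicates 2 and 3 held 1 fragment each. The change was -2.28 with a pseudocount of 0.1 in place of 1, -0.28 with a pseudocount of 5, and -2.61 with voom (limma adjusted p = 0.342). With large follicle replicate 1 left out it was -1.29 (limma adjusted p = 0.149), and it stayed below 0 in every alternative that kept the gene.

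Epiregulin, EREG (gene 100620969, chromosome 8, 70351316 to 70372530), a ligand of EGFR and ERBB4, was close to absent from the libraries. Large follicle replicates 1, 2 and 3 held 4, 2 and 2 fragments of EREG, against 0 and 1 in small follicle replicates 1 and 2. These correspond to 0.0789, 0.0454 and 0.0434 FPKM in large follicles and to 0 and 0.0226 FPKM in small follicles. All large follicle values lay above both small follicle values, yet the whole series held 9 fragments of this gene. The 0 in small follicle replicate 1 allows up to 0.0715 FPKM. The ratio of large to small, by fragments per library total, was 4.90 with an exact 95% counting interval of 0.656 to 217, which covers counting error only. The exact permutation test gave p = 0.2, two-sided, the smallest this form of the test can give.

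Betacellulin, BTC (gene 100505411, chromosome 8, 70645721 to 70697538), binds EGFR and ERBB4 and is the other ligand of the mouse LH response. BTC had 0.708, 0.582 and 1.22 FPKM in large follicle replicates 1, 2 and 3, against 1.34 and 1.97 FPKM in small follicle replicates 1 and 2. The groups did not overlap, although large follicle replicate 3 and small follicle replicate 1 lay close together, at 33 fragments each. The log2 fold change was -0.54 ± 0.27 (SE), with a 95% interval of -1.15 to 0.07 and a limma adjusted p of 0.556.

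The sum of AREG, EREG and BTC was 2.08, 0.711 and 1.35 FPKM in large follicle replicates 1, 2 and 3, against 2.82 and 3.81 FPKM in small follicle replicates 1 and 2. No large follicle library therefore carried more of these ligands than a small follicle library. EPGN, EREG, AREG and BTC lie together within 431 kb of chromosome 8 (70266867 to 70697538). They did not keep to one order across the libraries: EREG was highest in large follicle replicate 1, and AREG and BTC in small follicle replicate 2.

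Heparin-binding EGF-like growth factor, HBEGF (gene 397564, chromosome 2, 142102455 to 142115192), binds EGFR and ERBB4. It was the second most abundant ligand by mean FPKM in both size classes. In small follicle replicate 1, however, AREG stood above it, at 1.48 against 1.35 FPKM. Of the 6 tested genes among the 10, only HBEGF had a positive fold change. HBEGF had 3.30, 1.90 and 3.57 FPKM in large follicle replicates 1, 2 and 3, against 1.35 and 3.11 FPKM in small follicle replicates 1 and 2. The groups overlapped, with the lowest value in small follicle replicate 1. The log2 fold change was 0.31 ± 0.35 (SE), with a 95% interval of -0.47 to 1.09 and a limma adjusted p of 0.858. It was -0.10 with small follicle replicate 1 left out and 0.71 with small follicle replicate 2 left out, so its direction rested on small follicle replicate 1.

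EGF itself (gene 397083, chromosome 8, 112235607 to 112330062), the founding EGFR ligand, was found in 6, 6 and 10 fragments of the large follicle libraries, against 2 and 9 of the small ones. Its levels were 0.101, 0.117 and 0.186 FPKM in large follicles and 0.0408 and 0.174 FPKM in small follicles, and the groups overlapped (exact permutation test, two-sided p = 0.6). Neuregulin 1, NRG1 (gene 102164569, chromosome 15, 52625550 to 53688003), signals through ERBB3 and ERBB4 and is induced by LH in mouse granulosa cells. NRG1 had 0.219, 0.0734 and 0.260 FPKM in large follicles, against 0.198 and 0.418 FPKM in small follicles, from 7 to 40 fragments per library. Its groups also overlapped, with large follicle replicate 2 lowest and small follicle replicate 2 highest (exact permutation test, two-sided p = 0.6).

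**Figure D2:**
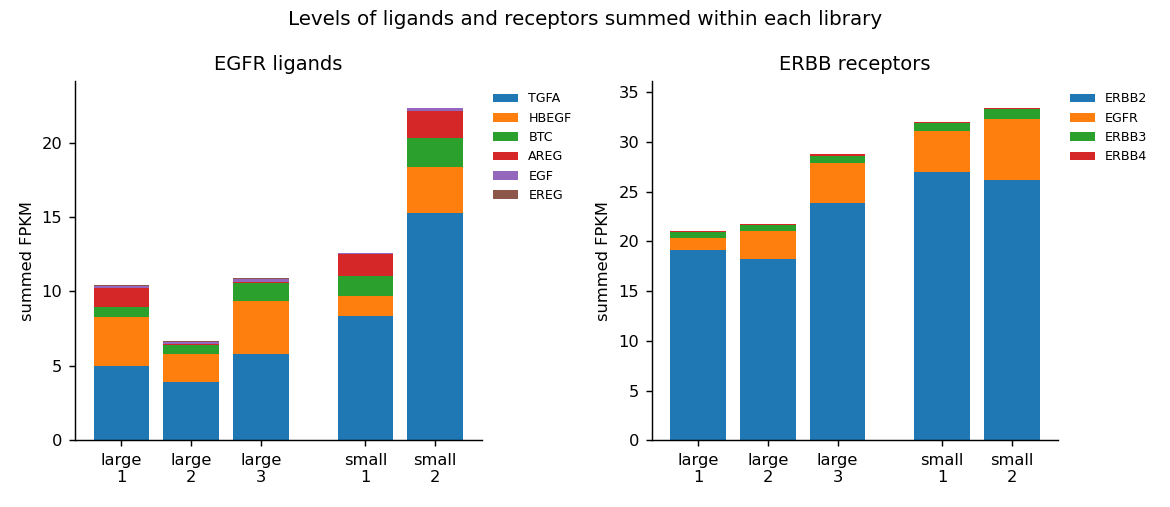
FPKM of the 6 EGFR ligands (left) and of the 4 ERBB receptors (right) stacked within each library, on linear vertical axes from 0. TGFA takes 47.6% to 59.0% of the ligand sum in large and 66.5% to 68.3% in small follicle libraries, and ERBB2 makes up most of the receptor sum in every library.

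The make-up of the ligand pool is shown in the plot of stacked FPKM. Over the 6 EGFR ligands the summed level was 10.4, 6.64 and 10.9 FPKM in large follicle replicates 1, 2 and 3, against 12.6 and 22.3 FPKM in small follicle replicates 1 and 2. TGFA took 47.6%, 59.0% and 53.2% of that sum in large follicles and 66.5% and 68.3% in small follicles. HBEGF took 31.6%, 28.6% and 32.7% in large follicles and 10.7% and 13.9% in small follicles. Neither share overlapped between the size classes, nor did those of EREG and EGF, each at most 1.76% of the sum. Shares of a common sum depend on each other. AREG took 12.4% in large follicle replicate 1, but 1.25% and 0.726% in replicates 2 and 3, against 11.7% and 8.11% in small follicle replicates 1 and 2. FPKM is scaled per length, and a sum over ligands does not weigh their differing affinities.

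Among the receptors, ERBB2 (gene 100516641, chromosome 12, 22591621 to 22621384) was by far the most abundant. ERBB2 has no known ligand of its own and serves as the preferred partner of the other receptors. It had 19.1, 18.2 and 23.9 FPKM in large follicle replicates 1, 2 and 3, against 27.0 and 26.2 FPKM in small follicle replicates 1 and 2. The groups did not overlap, and the small follicle libraries were close to each other. The means were 20.4 ± 3.04 FPKM in large follicles (SD, n = 3) and 26.6 ± 0.595 FPKM in small follicles (SD, n = 2). The log2 fold change was -0.38 ± 0.22 (SE), with a 95% interval of -0.87 to 0.12 and a limma adjusted p of 0.649. ERBB2 was the best counted of the 10 genes, with 802 to 1157 fragments per library. After median-of-ratios scaling its values ran from 18.7 to 21.9 in large follicles and were 29.9 and 21.5 in small follicle replicates 1 and 2, so the groups overlapped.

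The receptor of EGF, EGFR (gene 397070, chromosome 9, 139302410 to 139474632), binds each ligand described above except NRG1 and is the one through which cumulus cells respond in the mouse. EGFR had 1.26, 2.83 and 4.02 FPKM in large follicle replicates 1, 2 and 3, against 4.04 and 6.11 FPKM in small follicle replicates 1 and 2. The groups were only just apart, since large follicle replicate 3 and small follicle replicate 1 were almost equal. The log2 fold change of EGFR was -0.77 ± 0.38 (SE), with a 95% interval of -1.61 to 0.08 and a limma adjusted p of 0.543. It was -0.45 with large follicle replicate 1 left out, and -1.02 with large follicle replicate 3 left out.

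ERBB3 (gene 100525045, chromosome 5, 21474218 to 21495040), a neuregulin receptor with a weak kinase that signals through its partners, was low throughout. ERBB3 had 0.532, 0.613 and 0.723 FPKM in large follicle replicates 1, 2 and 3, against 0.832 and 1.06 FPKM in small follicle replicates 1 and 2. The groups did not overlap (exact permutation test, two-sided p = 0.2, the smallest possible), at 34 to 59 fragments per library. ERBB4 (gene 100525789), the receptor for neuregulins, betacellulin and HBEGF, had 0.133, 0.0403 and 0.193 FPKM in large follicles and 0.0931 and 0.0964 FPKM in small follicles, and these overlapped.

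The make-up of the receptor pool overlapped between the size classes. ERBB2 made up 90.8%, 83.9% and 82.9% of the summed FPKM of the 4 receptors in large follicle replicates 1, 2 and 3, against 84.5% and 78.3% in small follicle replicates 1 and 2. EGFR made up 6.01%, 13.0% and 13.9% in large follicles and 12.6% and 18.3% in small follicles. Large follicle replicate 1 held the highest share of ERBB2 and the lowest of EGFR. The ratio of ERBB2 to EGFR was 15.1 in large follicle replicate 1 and between 4.28 and 6.69 in the other 4 libraries.

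**Figure D3:**
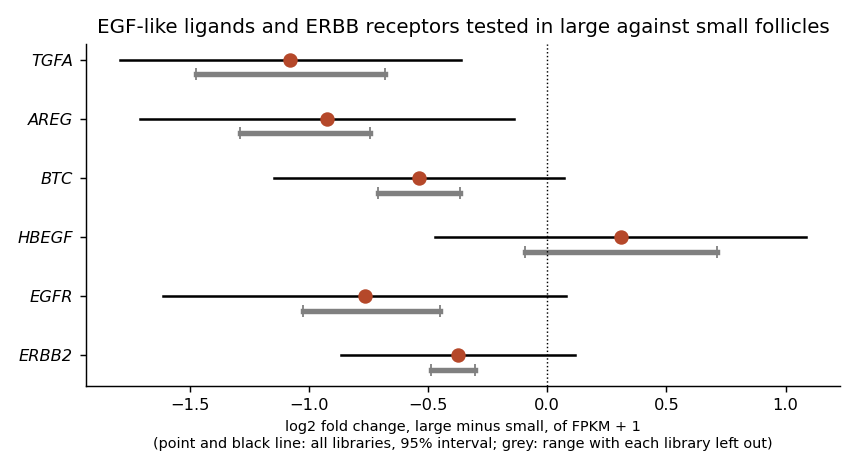
Log2 fold change of FPKM + 1, large minus small (horizontal axis), for the 6 tested genes. Points and black lines are the estimate and its 95% interval over all 5 libraries, and grey bars span the estimates with each library left out. The 95% intervals of TGFA and AREG lie wholly below 0 and those of BTC, EGFR, ERBB2 and HBEGF include 0, while among the grey bars only that of HBEGF crosses 0.

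The order of the levels was largely shared by the size classes. In large follicles it ran ERBB2, TGFA, HBEGF, EGFR, BTC, ERBB3, AREG, NRG1, EGF and EREG by mean FPKM. In small follicles it ran ERBB2, TGFA, EGFR, HBEGF, BTC, AREG, ERBB3, NRG1, EGF and EREG. In large follicles HBEGF and EGFR overlapped, as did each neighbouring pair from BTC down to EGF. In small follicles HBEGF overlapped with BTC and BTC with AREG, while the other neighbours were apart. Set against all genes tested, 77.7% had a lower mean FPKM over the 5 libraries than ERBB2, 51.1% a lower one than TGFA, and 2.96% a lower one than AREG.

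TGFA had the smallest unadjusted p of the family, and the 3 genes nearest to it in profile were KIAA1191, LMNB1 (lamin B1, of the nuclear envelope) and DOCK6. Likeness was the mean absolute difference of log2(FPKM + 1), centred over the 5 libraries, among 7611 genes with a symbol and a mean FPKM of at least 5. The differences were 0.05, 0.07 and 0.08. LMNB1 had 8.67, 6.13 and 9.31 FPKM in large follicles and 12.1 and 21.9 FPKM in small follicles, the same ranking of libraries as TGFA. With 5 libraries many genes can share such a ranking.

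The remaining ligands of the family were also low. Neuregulin 4, NRG4, was tested and had 1.54, 0.746 and 2.32 FPKM in large follicles and 1.17 and 1.11 FPKM in small follicles (limma adjusted p = 0.904). Neuregulin 3, NRG3, had 0.310, 0.665 and 0.775 FPKM in large follicles, against 0.221 and 0.226 FPKM in small follicles. NRG3 did not overlap, from 13 to 50 fragments per library (exact permutation test, two-sided p = 0.2, the smallest possible). Epithelial mitogen, EPGN, and neuregulin 2, NRG2, stayed at or under 0.362 and 0.274 FPKM, and both overlapped.

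No gene on the lists of ligand release, receptor turnover and downstream kinases passed the test. Of 10 sheddases and shedding regulators, 10 were tested and 0 were called in either direction by limma (0 at an unadjusted p under 0.05), with a median log2 fold change of -0.25. ADAM17, the main sheddase of TGFA, AREG and HBEGF, had 10.02, 9.80 and 13.1 FPKM in large follicles and 9.13 and 14.3 FPKM in small follicles. The smallest p values were those of the sheddases ADAM12 and ADAM10, the iRhom RHBDF2 and the inhibitor TIMP3, with log2 fold changes of -0.64, -1.11, -0.44 and -0.33 and limma adjusted p values from 0.488 to 0.750. Of 17 inhibitors and turnover genes of the receptors, 15 were tested and 0 were called (0 at an unadjusted p under 0.05). Their median was -0.07, and the feedback inhibitor SPRY2 had the smallest p (log2 fold change -0.53, limma adjusted p = 0.753). SOCS4 and USP8, which act on receptor breakdown, and LRIG3 had log2 fold changes of -0.49, -0.33 and -0.24, and of -0.10, 0.06 and 0.05 with small follicle replicate 2 left out. Voom also called 0 genes of either list.

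Of 21 adaptor and kinase genes from GRB2 to ERK, 21 were tested and 0 were called by limma or by voom, with 2 at an unadjusted p under 0.05 (10.4% of all genes tested stood there) and a median of -0.29. Among the smallest p values were those of STAT3 (log2 fold change -0.995), AKT1 (-0.39) and the PI3-kinase subunit PIK3R1 (0.68), at limma adjusted p values from 0.417 to 0.577. Of 12 genes that ERK signalling induces, 11 were tested and 0 were called by limma or by voom, with 2 at an unadjusted p under 0.05, and their median was 0.07. These 2 were the immediate early factors FOS and EGR1, at -1.63 (limma adjusted p = 0.0973) and -1.65 (limma adjusted p = 0.160) on the log2 scale. The ERK phosphatases DUSP6 and DUSP5 stood at 0.50 (limma adjusted p = 0.754) and 0.42 (limma adjusted p = 0.761), and at -0.11 and -0.05 with small follicle replicate 1 left out. FOS and EGR1 were not called with large follicle replicate 1 left out (limma adjusted p values of 0.310 and 0.287) or with no filter (0.311 and 0.387). They were called with large follicle replicate 2 left out (limma adjusted p values of 0.0456 and 0.0449) and with large follicle replicate 3 left out (0.00230 and 0.00364). FOS was also called with small follicle replicate 1 left out (limma adjusted p = 0.0262).

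**Figure D4:**
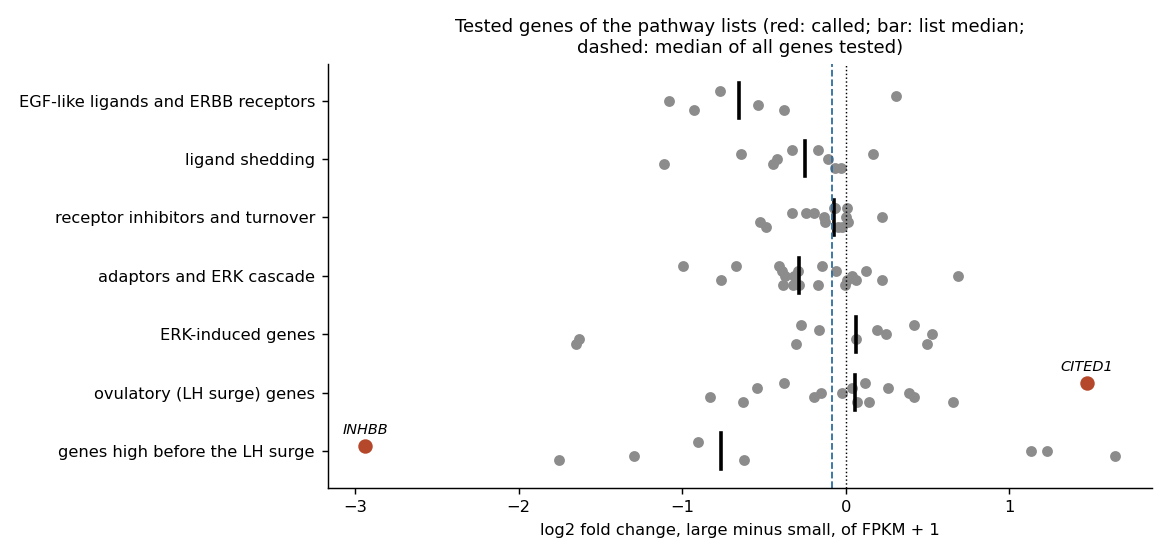
Log2 fold change of FPKM + 1, large minus small (horizontal axis), of each tested gene, by list (vertical axis); red points passed the test, bars are list medians and the dashed line is the median of all genes tested. The family's median lies at -0.65, the ovulatory list at 0.06 with CITED1 called, and the list of genes high before the LH surge at -0.76 with INHBB called.

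Genes of the ovulatory (LH surge) list showed no common direction. Of 20 such genes 16 were tested; 1 was called higher and 0 lower by limma and 0 in either direction by voom, beside 0.535% and 0.443% of all genes tested, and 9 of the 16 were above 0, at a median log2 fold change of 0.06. PTGS2, which makes prostaglandins in the ovulating follicle, had 0.241, 0.332 and 0.106 FPKM in large follicles, against 0.203 and 0.276 FPKM in small follicles, from 4 to 12 fragments per library. The groups overlapped, and the level was far below that of ERBB2 or TGFA in every library. TNFAIP6 had 1.73, 1.85 and 1.90 FPKM in large follicles, against 2.31 and 4.73 FPKM in small follicles (limma adjusted p = 0.549). Its groups did not overlap, and the lower values were those of large follicles. The progesterone receptor PGR, which LH induces in mouse granulosa cells, differed by -0.02 ± 0.25 (SE) on the log2 scale (limma adjusted p = 0.989).

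The called ovulatory gene was CITED1, a transcriptional coregulator. CITED1 had 109, 149 and 128 FPKM in large follicles, against 33.8 and 60.2 FPKM in small follicles, and rose by 1.48 ± 0.27 (SE) on the log2 scale (limma adjusted p = 0.0398). CITED1 lost its call with no filter (limma adjusted p = 0.169). Its adjusted p was also 0.0649 at a mean FPKM of at least 5, 0.0793 with voom, 0.0988 with large follicle replicate 1 left out and 0.219 with small follicle replicate 1 left out. STC1, a secreted glycoprotein, and PLAUR, the urokinase receptor, stood at -0.83 (limma adjusted p = 0.512) and 0.66 (limma adjusted p = 0.554) on the log2 scale.

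**Figure D5:**
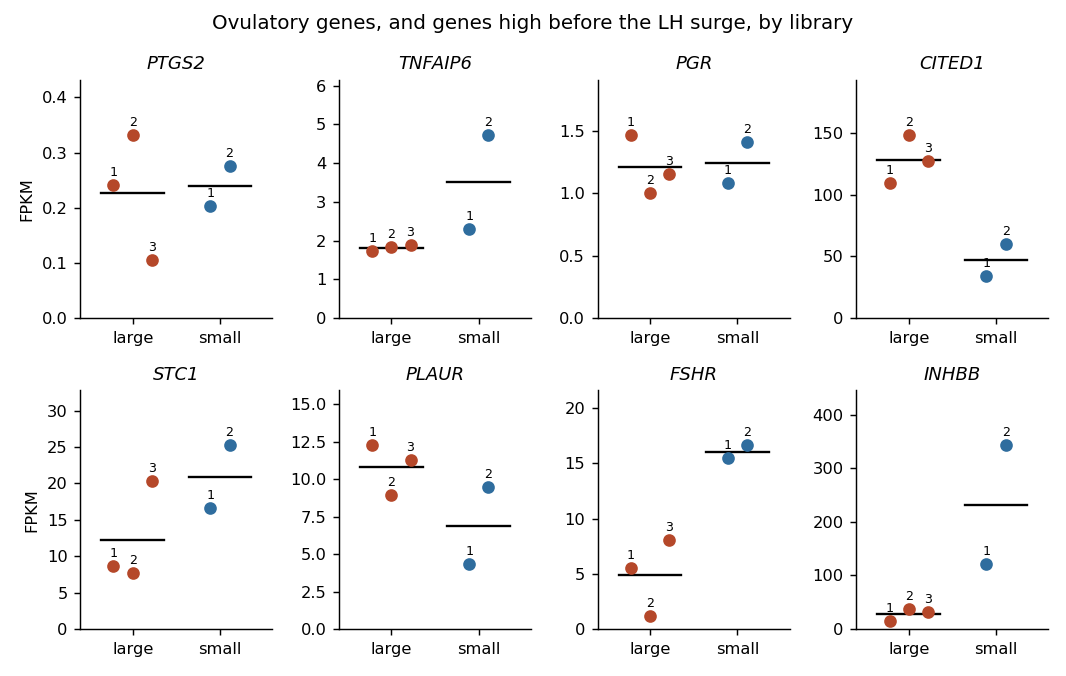
FPKM (vertical axes, linear, from 0, with a separate scale for each gene) of 6 ovulatory genes and of FSHR and INHBB in large (red) and small (blue) follicle libraries; numbers are replicate numbers and lines are group means. PTGS2 and PGR overlap between the size classes, CITED1 is higher in large follicles, and TNFAIP6, FSHR and INHBB sit lower in large follicles.

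Of 10 genes that are high in follicles before the LH surge, 8 were tested. Limma called 0 higher and 1 lower, beside 0.535% and 0.443% of all genes tested. At an unadjusted p under 0.05 stood 7 of the 8, as did 10.4% of all genes tested. The 8 genes did not share a direction, with 3 above 0 (CYP19A3, INHA and LHCGR) and 5 below. The called gene was the inhibin and activin subunit INHBB, at 14.2, 37.1 and 31.8 FPKM in large follicles and 121 and 343 FPKM in small follicles (log2 fold change -2.94, limma adjusted p = 0.0237). INHBB was not called with no filter (limma adjusted p = 0.166), at a mean FPKM of at least 5 (0.0522), with large follicle replicate 1 left out (0.0775) or with small follicle replicate 2 left out (0.0817). FSHR, through which follicle-stimulating hormone acts, had 5.47, 1.20 and 8.06 FPKM in large follicles, against 15.5 and 16.6 FPKM in small follicles (limma adjusted p = 0.201). FSHR was called lower with large follicle replicate 3 left out (log2 fold change -2.17, limma adjusted p = 0.00696). It was not called with large follicle replicate 1 left out (log2 fold change -1.93, limma adjusted p = 0.391) or with no filter (limma adjusted p = 0.415). The estrogen-forming enzyme HSD17B1 and the aromatase copy CYP19A3 stood at -1.29 (limma adjusted p = 0.0956) and 1.65 (limma adjusted p = 0.181) on the log2 scale, and HSD17B1 was called with large follicle replicate 2 left out (limma adjusted p = 0.0223). The LH receptor LHCGR, named outside the rule for named genes and after its values were seen, had 33.5, 73.1 and 87.0 FPKM in large follicles and 16.8 and 36.8 FPKM in small follicles (limma adjusted p = 0.311). Near-identical aromatase copies make the assignment of fragments to CYP19A3 uncertain.

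Defining genes of granulosa and theca cells were present in all libraries. The granulosa factor FOXL2 had 11.06, 25.9 and 19.5 FPKM in large follicles, against 26.0 and 42.3 FPKM in small follicles. INHA, on the same list, lay the other way, at 4474 to 11739 FPKM in large follicles and 2876 and 3515 FPKM in small follicles. Of 6 granulosa markers 4 had a negative fold change, and their summed level, mostly INHA, was 4537 to 11842 FPKM in large follicles and 2978 to 3677 FPKM in small follicles. The theca list summed to 5659 to 9555 FPKM in large and 4406 to 5173 FPKM in small follicles, with 5 of 6 members above 0. Myeloid markers, from cells that can also make HBEGF, had 6 of 7 members above 0 and summed to 237 to 326 FPKM in large and 154 to 178 FPKM in small follicles. Of these markers CD68, CSF1R and C1QA overlapped between the size classes. The other 4 lay wholly higher in large follicles, as did 10.4% of genes above 0 in any library. Erythroid markers had 3 of 3 tested members above 0, at a sum of 1003 to 1675 FPKM in large and 233 to 701 FPKM in small follicles. Endothelial markers had 4 of 6 above 0, at 176 to 201 FPKM in large and 168 to 173 FPKM in small follicles. Oocyte markers had 4 of 5 tested above 0, at 59.3 to 79.6 FPKM in large and 33.7 to 36.5 FPKM in small follicles. Of those tested, ZP3, GDF9 and BMP15 overlapped between the size classes, while DPPA5 and OOEP lay wholly higher in large follicles. In the mast cell list 1 of 2 tested members was above 0 and the defining protease CPA3 was at 0 fragments in all libraries, with HDC making up most of the sum of 90.3 to 133 FPKM in large and 16.3 to 34.5 FPKM in small follicles. Epithelial markers had 1 of 2 tested members above 0 and summed to 7.16 to 16.5 FPKM in large and 11.2 to 15.2 FPKM in small follicles. Schwann cell markers had 0 of 2 above 0, at 26.8 to 48.3 FPKM in large and 45.0 to 45.5 FPKM in small follicles, mostly S100B. Of all genes tested, limma called 0.535% higher and 0.443% lower in large follicles. Among the marker genes it called 3, all higher in large follicles. From lists with 6, 7 and 2 tested genes, these were the theca steroid enzyme CYP17A1, the myeloid lysozyme LYZ and the histamine-forming enzyme HDC. Their log2 fold changes were 3.07, 2.74 and 2.59 (limma adjusted p values of 0.0121, 0.000551 and 0.00559), and CYP17A1 and HDC were not called with no filter (0.140 and 0.0764). Of all fragments, 3.46%, 6.33% and 3.08% in the large follicle libraries and 8.50% and 4.20% in the small ones were mitochondrial, a share that can move with RNA quality. The part of cell make-up and of RNA quality in the values of the ligands and receptors was not tested.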

How the data were processed

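Per the file headers, the deposited values are FPKM per gene for each library, computed by the authors. For that step the submitters' processing notes list, without their order or use, HISAT2 2.0.5 and StringTie 1.3.3, then FastQC 0.11.4, featureCounts 1.5.0-p3 and Trimmomatic 0.38, on the build Sscrofa11.1. Per the labels' protocols a stranded mRNA kit was used; whether counting used strand is unknown here. Chromosome numbers came from RefSeq genes of the same build (30335 of 30822 identifiers matched). Library totals, worked back from the FPKM steps, were 9523739 to 11507527 fragments. All 23353 genes above 0 gave whole fragments within 0.001, 49.5% of them at the listed gene length. The others (BTC, EGF, TGFA, HBEGF, NRG1 and ERBB2 among them) did so at a shorter length found by search. Libraries of 1 group differed beyond sampling noise (chi-square per degree of freedom from 28.5 to 51.9 over genes with 10 or more fragments). Intervals and the floor of 3 fragments cover counting error only.

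Large and small follicles were compared with limma 3.58.1 (R 4.3.3) on log2(FPKM + 1), with a trended prior variance and no term beside the group. Fold changes are large minus small on that scale. The fit was also run on simulated data with the same spread setting for every gene, which need not match the spread of these libraries. Groups came from the sample titles. The members, the lists and the alternatives were chosen with earlier results of these data known. All members were named, the other family genes, up to 4 genes per pathway list with the smallest p and any called gene, PTGS2, TNFAIP6 and PGR, and the 3 profiles nearest to TGFA; ADAM17, FOXL2, LHCGR and other marker genes were added after the values were seen. HAS2 and MSLN were not analysed here, and 1 gene that the rule names on the adaptor list is not reported here. TGFA and EGFR each overlap an antisense lncRNA that stayed at or under 0.0736 FPKM.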

Additional observations from a re-analysis of the deposited data

How the results depend on the processing

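Of the 10 family genes, 0 were called under each of 13 alternatives. Only the fit with no filter tested all 10, while the fit at a mean FPKM of at least 5 tested 2 and the others tested 6. The direction of TGFA, AREG, BTC, EGFR and ERBB2 was the same in all alternatives that could be fitted. HBEGF, at 0.31, reversed to -0.10 with small follicle replicate 1 left out (limma adjusted p = 0.935); with each library left out it ran from -0.10 to 0.71. The limma adjusted p of TGFA was lowest with quantile normalization (0.0599) and median-of-ratios scaling (0.0538), and highest with small follicle replicate 2 left out (0.917). The count of called genes over all tested was 128, and 32 with no filter, 41 at a mean FPKM of at least 5, 70 with voom, 201 with quantile normalization and 210 with median-of-ratios scaling; with each library left out it ran from 29 (without large follicle replicate 1) to 268 (without large follicle replicate 2). For genes under the filter the log2 difference moved with the pseudocount: at 0.1 it was 0.49 for EREG (0.06 at 1), 0.24 for EGF (0.04), -0.54 for NRG1 (-0.14) and -0.53 for ERBB3 (-0.26), and at a pseudocount of 5 it was 0.013 for EREG and -0.080 for ERBB3. The median log2 fold change of all genes tested was -0.08, and -0.26 and 0.09 without small follicle replicates 1 and 2; where 1 small follicle library is left, it is assumed to vary like the large ones. With the replicate number as a block, 157 genes and 0 family genes were called, and among the named list genes FOS, EGR1, FSHR and CYP19A3 gained a call (limma adjusted p values of 9.08e-06, 5.13e-06, 0.00556 and 0.00387). Large follicle replicate 3 has no small partner, so the block estimates equal those without it (TGFA -1.19 in both). That fit leaves hardly any spread to measure, and its p-values rest on the prior variance shared across genes, not on replication. Same-numbered libraries did not deviate together (r of -0.00148 for replicate 1 and -0.45 for replicate 2, across genes). With 2 small follicle libraries the deviations are mirror images, so these values cannot show whether the numbers pair the libraries. The cause of these shifts was not tested. At the depth of these libraries AREG, EREG and EGF rest on at most 22 fragments each per library.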

Other observations

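The balance of TGFA and HBEGF, the leading EGFR ligands by mean FPKM, did not overlap between the size classes. This ratio was chosen after the values were seen and was not tested. The ratio of TGFA to HBEGF in FPKM was 1.51, 2.07 and 1.63 in large follicle replicates 1, 2 and 3, against 6.20 and 4.91 in small follicle replicates 1 and 2. It averaged 1.73 ± 0.294 in large follicles (SD, n = 3) and 5.55 ± 0.912 in small follicles (SD, n = 2), and a ratio within a library does not depend on how libraries are scaled.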
